A study of Mus musculus with 29 samples.

Results

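Acyl-CoA thioesterases are described here as a family of 8 genes taken by symbol from a table of 24346 genes: Acot1, Acot2, Acot3, Acot4, Acot7, Acot8, Acot12 and Acot13. Messenger RNA was sequenced from liver and hippocampus of male C57BL/6J mice with diet-induced obesity, whose age is not given in the sources used here. Obesity was induced in every mouse, controls included, by 10 weeks of high-fat feeding, and 4 regimens of 4 weeks followed. In HFD (liver n = 4, hippocampus n = 4) the high-fat diet went on ad libitum, and in HFD-IF (n = 2 and 4) it was combined with fasting on alternate days. In CC (n = 4 and 4) the mice were moved to control chow ad libitum, and in CC-IF (n = 4 and 3) to the same chow with the alternate-day fast. No group of mice that never ate high-fat diet was analysed here, and whether fasted mice were killed after a fasting or a feeding day is not given in the sources used here. Libraries are named by the index in the table's column names, which count from 0.

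Acyl-CoA thioesterases split an acyl-CoA into a free fatty acid and coenzyme A. Fatty acids must be bound to coenzyme A before they can enter beta-oxidation in mitochondria and peroxisomes or be built into lipids. The thioesterases run this step backwards, which frees coenzyme A in the compartment where they work. Acot1, Acot7 and Acot12 act in the cytosol, Acot2 and Acot13 at mitochondria, and Acot3, Acot4 and Acot8 in peroxisomes. Several of these genes are known in liver as targets of Ppara, the nuclear receptor that is activated by fatty acids and drives the response to fasting, while Acot7 is best known as the thioesterase of neurons.

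In liver, 6 of the 8 thioesterase genes rose when mice on chow were fasted intermittently, as did 14.2% of all genes. The peroxisomal Acot3 went from a mean of 2.59 to 125 FPKM (fragments per kilobase of transcript, scaled to the library's total). Acot1, Acot2 and Acot4, its neighbours in the genome, rose 6.54-fold, 7.01-fold and 6.85-fold by their group means, and Acot12 and Acot13 rose 1.88-fold and 1.54-fold. No member passed the test when diet alone was changed, as against 2.3% of all genes. None passed when fasting was added to high-fat diet either, as against 1.32% of all genes, but that comparison rests on 2 HFD-IF livers. Group means of Acot1 to Acot4 there were 2.18-fold to 7.73-fold those in HFD, while those of Acot7 and Acot13 were lower. The fasting changes on chow and on high-fat diet were not called different for any member, as against 1.11% of all genes. No member passed in any comparison within hippocampus, where at most 1 of 12857 genes did.

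The genes Acot2, Acot1, Acot4, Acot3, Acot5 and Acot6 follow each other on the plus strand of chromosome 12 (GRCm38, GENCODE M21) within 123.5 kb, from 83987861 to 84111349. Acot2 spans 83987861 to 83993873, Acot1 84009490 to 84018371, Acot4 84038379 to 84048601 and Acot3 84052144 to 84060402. The other members lie apart: Acot8 on chromosome 2 (164792765 to 164804882), Acot7 on chromosome 4 (152178134 to 152271855), and Acot13 (24817948 to 24831540) and Acot12 (91741512 to 91786148) on chromosome 13. The 250 bases before the RefSeq start (GRCm38.p6, all on the plus strand) are shown for the 5 called members whose promoters are in the sequence table, because these genes rose together in liver. Capitals mark the best match, on either strand, to 2 copies of AGGTCA with 1 base of any kind between them, the repeat known to be bound by Ppara with its partner Rxra.
Acot2, chr12:83987611-83987860: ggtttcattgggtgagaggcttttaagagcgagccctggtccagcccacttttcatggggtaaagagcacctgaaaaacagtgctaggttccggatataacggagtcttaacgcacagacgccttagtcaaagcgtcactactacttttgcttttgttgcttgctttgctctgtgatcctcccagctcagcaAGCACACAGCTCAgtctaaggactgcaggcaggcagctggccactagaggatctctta
Acot1, chr12:84009252-84009501: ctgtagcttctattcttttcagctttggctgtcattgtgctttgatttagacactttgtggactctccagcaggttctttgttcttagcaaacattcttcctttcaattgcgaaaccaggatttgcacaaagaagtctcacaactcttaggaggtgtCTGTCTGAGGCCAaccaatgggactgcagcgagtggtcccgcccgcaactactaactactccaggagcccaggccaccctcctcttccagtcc
Acot4, chr12:84038129-84038378: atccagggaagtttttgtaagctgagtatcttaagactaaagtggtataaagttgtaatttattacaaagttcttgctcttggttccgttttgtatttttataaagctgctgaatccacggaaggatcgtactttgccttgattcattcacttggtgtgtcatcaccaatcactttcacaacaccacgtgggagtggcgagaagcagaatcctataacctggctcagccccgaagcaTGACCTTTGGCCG
Acot3, chr12:84051894-84052143: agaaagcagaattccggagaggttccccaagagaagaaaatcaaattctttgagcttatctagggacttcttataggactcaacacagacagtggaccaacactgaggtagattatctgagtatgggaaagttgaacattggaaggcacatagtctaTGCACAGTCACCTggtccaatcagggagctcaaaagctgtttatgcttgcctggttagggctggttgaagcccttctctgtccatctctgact
Acot12, chr13:91741271-91741520: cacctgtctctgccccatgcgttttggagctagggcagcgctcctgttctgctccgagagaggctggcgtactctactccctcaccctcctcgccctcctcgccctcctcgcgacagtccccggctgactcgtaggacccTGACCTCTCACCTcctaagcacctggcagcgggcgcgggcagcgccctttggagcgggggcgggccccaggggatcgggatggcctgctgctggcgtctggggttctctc

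Acot12 held the closest match, with 1 mismatch on the minus strand at 110 to 98 bases before the start, and 0.484% of 32851 RefSeq promoters of the same length had at most 1. Acot4 had 2 mismatches in the last 13 bases before its start, on the minus strand, and 3.24% of promoters had at most 2. The best match had 3 mismatches in Acot2, and 21.3% of promoters had at most 3. It had 4 in Acot1 and 4 in Acot3, and 74.5% of promoters had at most 4. The best matches of Acot8 and Acot7, which did not pass the test in liver, each had 5. A single AGGTCA, on either strand, was in the windows of Acot4 and Acot12 as part of these matches and in 14.0% of promoters, and the E-box CACGTG was in Acot4 among the members and in 6.02% of promoters. These matches describe the letters of the windows and show no binding.

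Acot3, which encodes a peroxisomal thioesterase for long-chain acyl-CoA, had the widest ratio of the highest to the lowest library among the members in liver, at 668.6. Its FPKM in the 4 CC livers was 0.266, 0.549, 3.03 and 6.53, and in the 4 CC-IF livers 146.6, 93.6, 80.9 and 177.8, listed in the order of the column index. The lowest CC-IF liver therefore stood more than an order of magnitude above the highest CC liver, and the groups did not overlap, as for 28.8% of all genes. The change was 5.43 ± 0.64 on the log2(FPKM + 1) scale (SE, limma, adjusted p = 1.32e-04), and because of the added 1 this scale understates changes from low values. Over all genes tested in this comparison, 24% passed in either direction and 14.2% rose, and the median change was 0.022, against 1.74 over the 8 members.

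Acot4, the peroxisomal thioesterase known for its action on succinyl-CoA, lies directly before Acot3. It had 6.80, 7.22, 11.7 and 18.4 FPKM in the CC livers and 76.5, 69.2, 68.7 and 87.8 in the CC-IF livers. The fasted livers lay close together, with a mean of 75.5 ± 8.92 FPKM (SD, n = 4), and all exceeded the unfasted ones. The change was 2.76 ± 0.31 on the log2 scale (SE, limma, adjusted p = 9.90e-05). The annotation places an antisense gene and Gm49366, a protein-coding gene on the same strand, across Acot4 and Acot3, and neither has a row in the table used here. Strand cannot separate reads of Gm49366 from those of both members. The libraries kept strand, but whether counting used it is not given in the sources used here.

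Acot1, the cytosolic long-chain enzyme, was the most abundant thioesterase transcript of the CC-IF livers by its mean. It had 5.70, 12.6, 28.3 and 43.8 FPKM in the CC livers and 102.4, 100.7, 169.1 and 219.2 in the CC-IF livers. Unfasted livers differed among themselves by several-fold, and still none reached the lowest fasted one. The change was 2.92 ± 0.48 on the log2 scale (SE, limma, adjusted p = 9.41e-04).

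Acot2, the mitochondrial counterpart of Acot1, averaged 3.48 FPKM in the CC livers and 24.4 in the CC-IF livers. It had 1.01, 3.19, 3.61 and 6.09 FPKM in the CC livers and 21.4, 16.3, 18.9 and 40.8 in the CC-IF livers. The groups again did not overlap, and the change was 2.55 ± 0.50 on the log2 scale (SE, limma, adjusted p = 0.0030). Coding sequences of Acot1 and Acot2 are 95.55% identical, and 13.2% of the windows of 125 nt (1 read length) in the Acot1 transcript occur unchanged in that of Acot2. Of the Acot2 windows, 13.7% occur unchanged in Acot1. Reads from shared windows cannot be assigned by sequence alone, so the split between both genes is uncertain. It is more so for Acot2, since Acot1 averaged 148 FPKM in the CC-IF livers against 24.4 for Acot2. The share of the listed Acot2 values and of their rise that could be Acot1 reads was not tested. Windows with any mismatch were not counted as shared. Acot3 shared 2.39% of its windows with Acot1, and Acot4 shared 0 with any of the other members, Acot5 or Acot6.

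**Figure D1:**
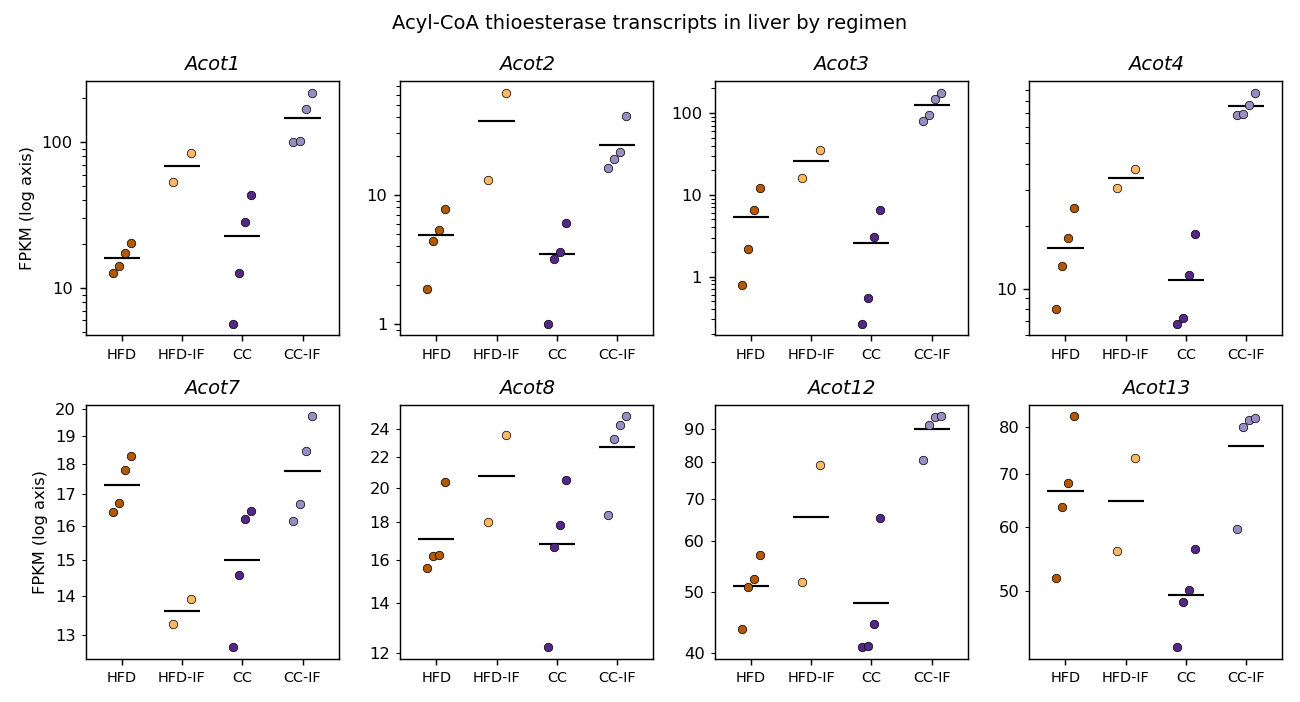
FPKM of each thioesterase gene in liver on log axes that differ between panels, with 1 point per library and a line at the group mean, for HFD (n = 4), HFD-IF (n = 2), CC (n = 4) and CC-IF (n = 4). In Acot1 to Acot4, Acot12 and Acot13 all 4 CC-IF livers lie above all 4 CC livers, while Acot7 and Acot8 overlap.

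Acot12, a cytosolic enzyme that hydrolyses acetyl-CoA and is known mainly from liver, started from a high level. It had 41.1, 40.9, 44.5 and 65.2 FPKM in the CC livers and 80.4, 94.4, 91.3 and 94.0 in the CC-IF livers. The groups did not overlap, and the change was 0.92 ± 0.16 on the log2 scale (SE, limma, adjusted p = 0.00136). Acot13, a small mitochondrial thioesterase of the hotdog fold, had 42.5, 56.3, 50.2 and 48.4 FPKM in the CC livers and 80.0, 82.1, 59.7 and 81.6 in the CC-IF livers. CC-IF library 2 was the lowest of its group and still above every CC liver, and the change was 0.60 ± 0.15 (SE, limma, adjusted p = 0.0115).

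Acot8 and Acot7 did not pass the test in liver. Acot8, a peroxisomal thioesterase of broad substrate range, had 12.2, 16.6, 20.5 and 17.9 FPKM in the CC livers and 18.4, 25.0, 23.3 and 24.3 in the CC-IF livers, with overlap. Its difference was 0.43 ± 0.15 on the log2 scale, with a 95% interval from 0.10 to 0.75 (limma, adjusted p = 0.0559). This call is unstable: Acot8 passed in 5 of 21 alternative settings, and without CC library 2 the difference was 0.53 (limma, adjusted p = 0.0318). Acot7, the neuronal enzyme, had 12.7 to 16.4 FPKM in the CC livers and 16.1 to 19.7 in the CC-IF livers, and its difference was 0.23 ± 0.09 (SE, limma, adjusted p = 0.0759). With limma's library weights it passed, at 0.28 (adjusted p = 0.0313).

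**Figure D2:**
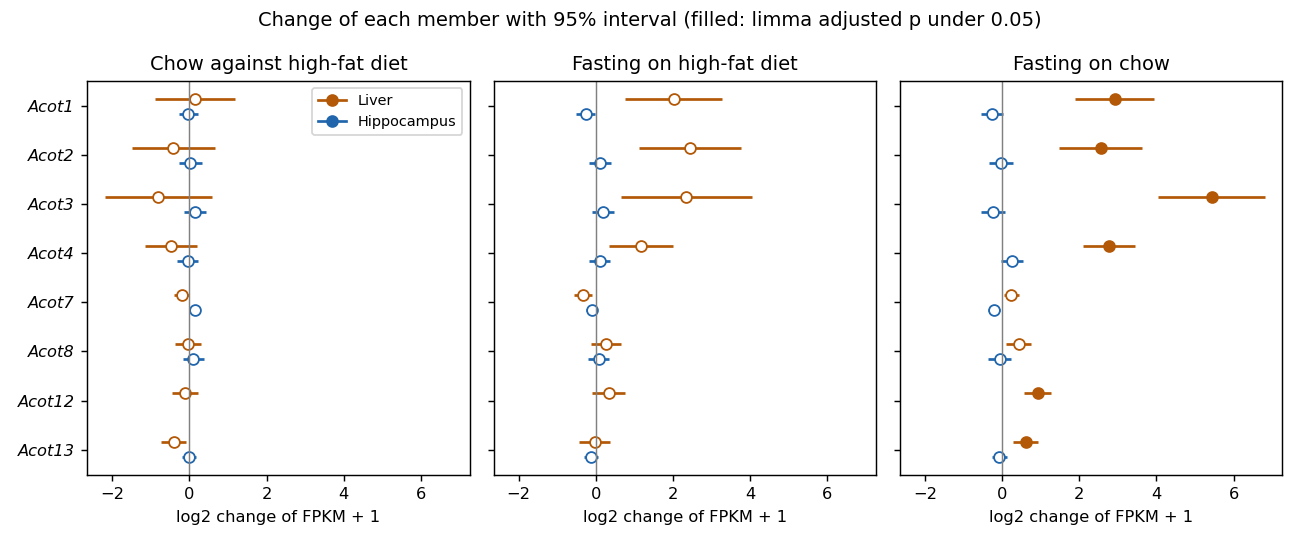
Change of each member as log2(FPKM + 1) with 95% interval in liver and hippocampus for chow against high-fat diet, fasting on high-fat diet and fasting on chow, with filled points where limma's adjusted p was under 0.05. Filled points appear only for liver under fasting on chow, for 6 members, and hippocampal intervals are narrow and near 0 (Acot12 was too low in hippocampus to be tested).

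The make-up of the family changed with its total. Summed over the members, thioesterase FPKM was 169 ± 40.8 in the CC livers, with a range of 125.8 to 220.8, and 579 ± 111 in the CC-IF livers, with a range of 500.9 to 744.0 (SD, n = 4 and 4). Acot1 to Acot4 together made up 21.7% ± 10.3 of that sum in CC and 63.6% ± 6.06 in CC-IF (SD, n = 4 and 4). The peroxisomal genes Acot3, Acot4 and Acot8 went from 17.7% ± 2.22 to 38.4% ± 4.86, and the mitochondrial genes Acot2 and Acot13 from 32.3% ± 6.37 to 17.4% ± 2.16 although both of them rose. The cytosolic share was 50.05% ± 4.84 in CC and 44.15% ± 6.43 in CC-IF. These shares are given without a test, since the members were chosen with results of these data known.

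**Figure D3:**
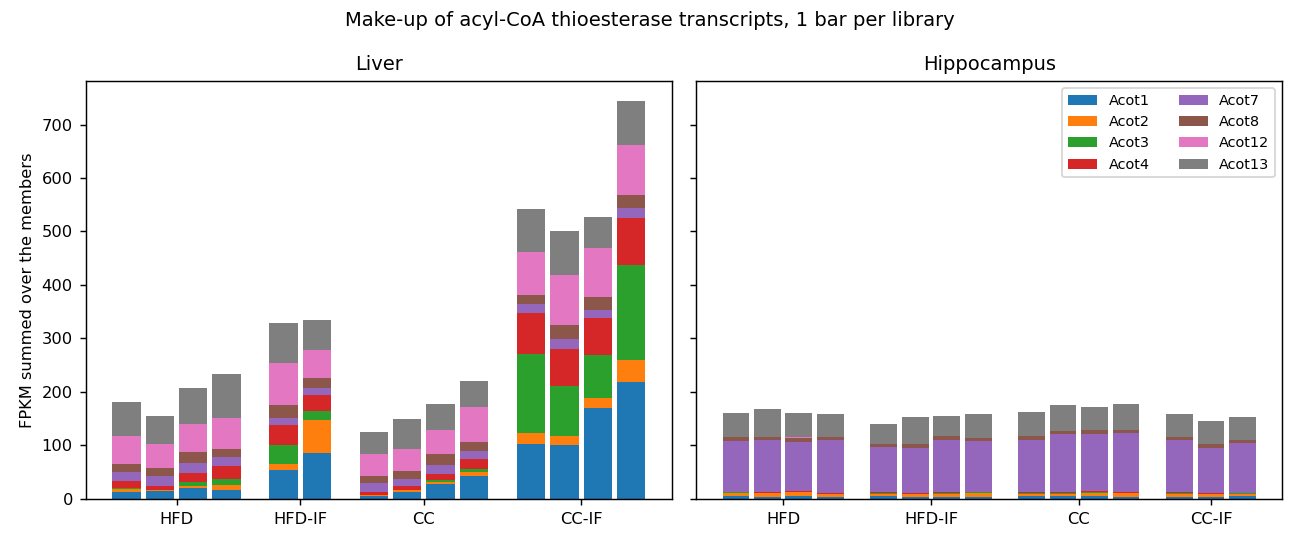
FPKM summed over the 8 members in each library, stacked by gene, in liver and hippocampus. The CC-IF livers reach 500.9 to 744.0, mostly through Acot1 to Acot4, while the hippocampal bars lie between 140.3 and 177.3 and are mostly Acot7 and Acot13.

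By mean level per length, Acot13 (49.4 FPKM) and Acot12 (47.9 FPKM) led the family in the CC livers, and their libraries overlapped. In the CC-IF livers the order of means was Acot1, Acot3, Acot12, Acot13, Acot4, Acot2, Acot8 and Acot7. Neighbours in that order overlapped in their libraries except Acot4 and Acot2, where every Acot4 value was higher. Acot3 thus stood last of 8 by its mean in CC, where it overlapped with Acot2, and second in CC-IF, where it overlapped with Acot1 and Acot12.

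Diet alone gave no call for the family. In CC against HFD livers, 2.3% of all genes passed in either direction and 0 of 8 members did. The HFD livers had 12.6, 14.1, 20.4 and 17.3 FPKM of Acot1 and 2.20, 0.796, 6.60 and 11.98 of Acot3, and both genes overlapped with their CC values. Acot13 had the smallest p, at 49.4 ± 5.69 FPKM in CC against 66.5 ± 12.7 in HFD (SD, n = 4 and 4), a difference of -0.41 ± 0.15 on the log2 scale (SE, limma, adjusted p = 0.165), and with library weights, which called 1061 of 11497 genes, it passed at -0.44 (adjusted p = 0.0480). The 95% intervals of the differences in Acot1 to Acot4 were wide, from -2.20 to 0.57 for Acot3. They rest on a spread that is shared by all 4 regimens, fasted livers included.

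Fasting on high-fat diet rests on 2 HFD-IF livers. Acot1 had 53.1 and 85.0 FPKM there, Acot2 12.97 and 62.3, Acot3 34.9 and 16.2, and Acot4 37.8 and 30.7. All of these values lay above every HFD liver, and with Acot7, which was lower at 13.3 and 13.9 FPKM against 16.4 to 18.3, 5 of 8 members did not overlap. The same held for 22.2% of all genes. None of the 8 members passed the test, as against 1.32% of all genes. The differences were 2.45 ± 0.61 for Acot2 (SE, limma, adjusted p = 0.0721), 2.02 ± 0.58 for Acot1 (adjusted p = 0.108), 2.35 ± 0.79 for Acot3 (adjusted p = 0.1504) and 1.17 ± 0.38 for Acot4 (adjusted p = 0.142).

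The 2 HFD-IF libraries were unlike each other. Library 1 had the most genes above 0 of any liver (16343), and its summed FPKM over 7 macrophage markers was 256.9 and over 6 stellate and fibroblast markers 443.7, against 51.7 to 133.0 and 136.1 to 230.0 in the other livers. The part of these cells in the results was not tested, and in tissue samples fewer cells of a type and less RNA per cell cannot be told apart. Without library 1 the difference in Acot2 was 1.36 (limma, adjusted p = 0.414) and that in Acot1 1.68 (adjusted p = 0.383). Without library 0, Acot2 passed at 3.54 (limma, adjusted p = 0.004425), in a fit that called 1633 of 11497 genes, against 152 with both libraries and 5 of 11401 without library 1. Leaving out 1 of them leaves a single fasted liver, which limma assumes to vary like the other groups. Without CC library 0, which enters this comparison only through the shared estimate of spread, Acot1 passed at the same 2.02 (limma, adjusted p = 0.04805), with 133 genes called in all.

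Whether fasting acted differently on chow than on high-fat diet was tested as the difference between both fasting changes. It passed for 0 of 8 members and 1.11% of all genes (limma). Acot7 had the smallest p, with an estimate of 0.56 ± 0.14 (SE, limma, adjusted p = 0.0734). Acot3 had an estimate of 3.08 ± 1.01 (adjusted p = 0.142), Acot4 of 1.59 ± 0.50 (adjusted p = 0.126) and Acot2 of 0.10 ± 0.79 (adjusted p = 0.960). Before adjustment the 95% intervals of 5 members lay above 0: Acot3 from 0.88 to 5.27, Acot4 from 0.52 to 2.66, Acot7 from 0.25 to 0.87, Acot12 from 0.05 to 1.13 and Acot13 from 0.12 to 1.15. Over all genes, 2101 of 11497 had an unadjusted p under 0.05 in this test, in either direction (limma). Without HFD-IF library 0, Acot12 passed at 0.89 (limma, adjusted p = 0.0363), against 0.59 with it (adjusted p = 0.237), but that fit called 1766 of 11497 genes. The difference between diets was thus tested for every member and called for none.

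CC-IF against HFD-IF livers compared both fasted groups. None of the 8 members passed, as against 0.591% of all genes. Acot1, Acot3, Acot4, Acot7 and Acot12 were higher in every CC-IF liver than in both HFD-IF livers, and 21.2% of all genes did not overlap in 1 direction or the other. Without HFD-IF library 0, Acot12 passed at 0.78 (limma, adjusted p = 0.0312), in a fit that called 1773 of 11497 genes. Against the HFD livers, which differ in both diet and fasting, 5 members rose in CC-IF, as 12.4% of all genes did, and 23.7% passed in either direction. They were Acot3 (4.62 ± 0.64), Acot1 (3.06 ± 0.48), Acot4 (2.29 ± 0.31), Acot2 (2.13 ± 0.50) and Acot12 (0.81 ± 0.16), as log2 changes with SE in limma with adjusted p from 4.73e-04 to 0.00905. Acot13 did not pass, at 0.19 ± 0.15 (adjusted p = 0.382). This comparison shares its CC-IF livers with fasting on chow, so both sets of calls are not independent.

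None of the tested genes around the cluster passed in liver. Of those within 150 kb that could be tested in CC-IF against CC, the cell fate gene Numb differed by 0.15 ± 0.08 on the log2 scale (SE, limma, adjusted p = 0.166), the histone demethylase gene Riox1 by 0.29 ± 0.15 (adjusted p = 0.171) and Elmsan1 by -0.10 ± 0.15 (adjusted p = 0.673). Acot5 and Acot6, the last 2 genes of the cluster, were under the minimum mean of 1 FPKM in liver and were not tested. Acot5 was listed at 0 in all HFD and CC livers and at up to 0.318 FPKM in CC-IF, and Acot6 averaged 0.132 FPKM in CC and 0.443 in CC-IF. In CC hippocampus the same genes averaged 2.80 and 2.07 FPKM. Dnal1 and Pnma1, which flank the far end, averaged under 0.5 FPKM in each of these liver groups.

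**Figure D4:**
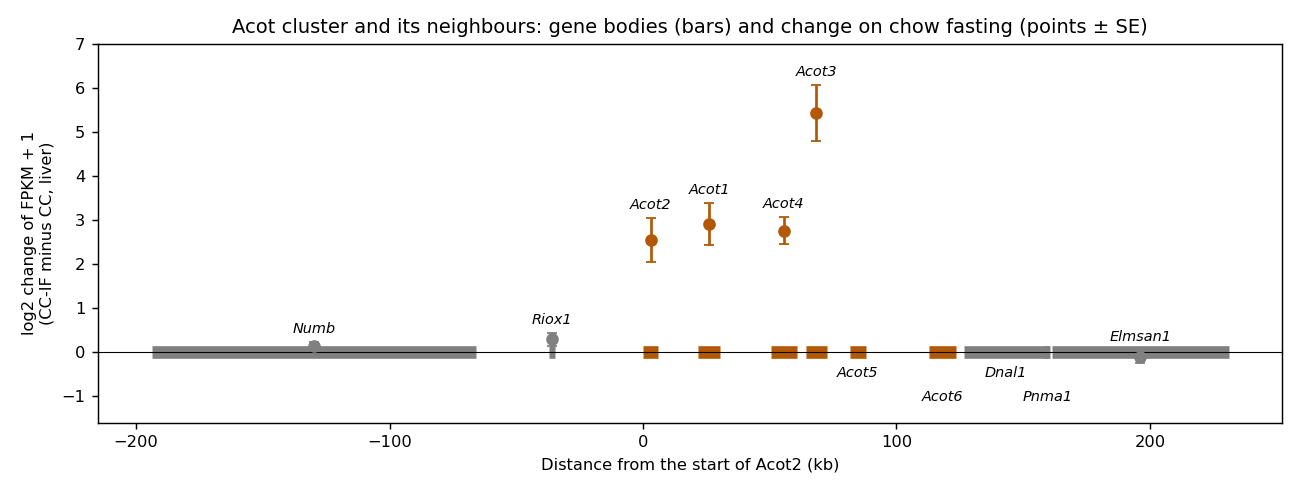
Gene bodies (bars, thioesterases in orange) by distance in kb from the start of Acot2, with the liver change of CC-IF minus CC on the log2(FPKM + 1) scale (points ± SE) for genes that could be tested. Acot2, Acot1, Acot4 and Acot3 lie between 2.55 and 5.43, and the tested neighbours Numb, Riox1 and Elmsan1 between -0.10 and 0.29; names under the line mark genes too low to test.

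Hippocampus had a different thioesterase profile. Acot7 averaged 96.5 ± 8.46 FPKM and Acot13 44.7 ± 3.90 over its 15 libraries (SD), and every library had more Acot7 than Acot13. Acot8, Acot2 and Acot1 followed at 6.34, 5.59 and 4.31 FPKM, and Acot3 and Acot4 at 1.39 and 1.25. Acot12 was listed at 0 to 0.268 FPKM, under the minimum, and was not tested within hippocampus. Acot7 made up 61.9% ± 0.93 of the family's FPKM in CC hippocampus (SD, n = 4) against 9.29% ± 2.63 in CC liver (SD, n = 4).

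On CC, the tissues differed in 4 of the 7 members that reached the minimum in both. Over all genes that reached it in either tissue, a wider set, 85.2% differed (41% higher and 44.2% lower in liver). Acot12, which reached the minimum only in liver, had 40.9 to 65.2 FPKM there against 0.133 to 0.169 in hippocampus. Acot4, Acot1 and Acot8 were higher in liver, by 2.43 ± 0.24, 1.72 ± 0.36 and 1.22 ± 0.14, and Acot7 was lower in liver by an estimate of -2.76 ± 0.08 (SE, limma, adjusted p at most 9.52e-05 for each of the 4). Acot13 averaged 49.4 FPKM in liver and 45.9 in hippocampus, a difference of 0.10 ± 0.12 with a 95% interval from -0.16 to 0.36 (limma, adjusted p = 0.464), and with quantile normalization it was -0.44 (adjusted p = 9.03e-04), so its direction depends on the scaling. Acot2 and Acot3 did not pass either.

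No hippocampal member passed in a comparison of regimens. In CC-IF against CC hippocampus 0 of 7 tested members passed, as against 0.00778% of all genes (1 of 12857 in limma, with 822 at an unadjusted p under 0.05). Acot7 had 98.4, 109.6, 107.9 and 110.0 FPKM in CC and 97.6, 84.8 and 92.7 in CC-IF. The groups did not overlap, as for 8.98% of all genes, and the difference was -0.21 ± 0.07 (SE, limma, unadjusted p = 0.00945, adjusted p = 0.552, with 0.177 to 1 over the alternatives). Acot4 was the other member without overlap, at 0.715 to 1.31 FPKM in CC and 1.335 to 1.72 in CC-IF, with a difference of 0.26 ± 0.14 (limma, adjusted p = 0.813). Over the 7 members the 95% intervals of this difference reached from -0.54 to 0.54, so changes of the size seen for Acot1 to Acot4 in liver lay outside them. In the other 5 hippocampal comparisons 0 of 12857 genes passed in limma, with 383 to 1131 at an unadjusted p under 0.05.

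**Figure D5:**
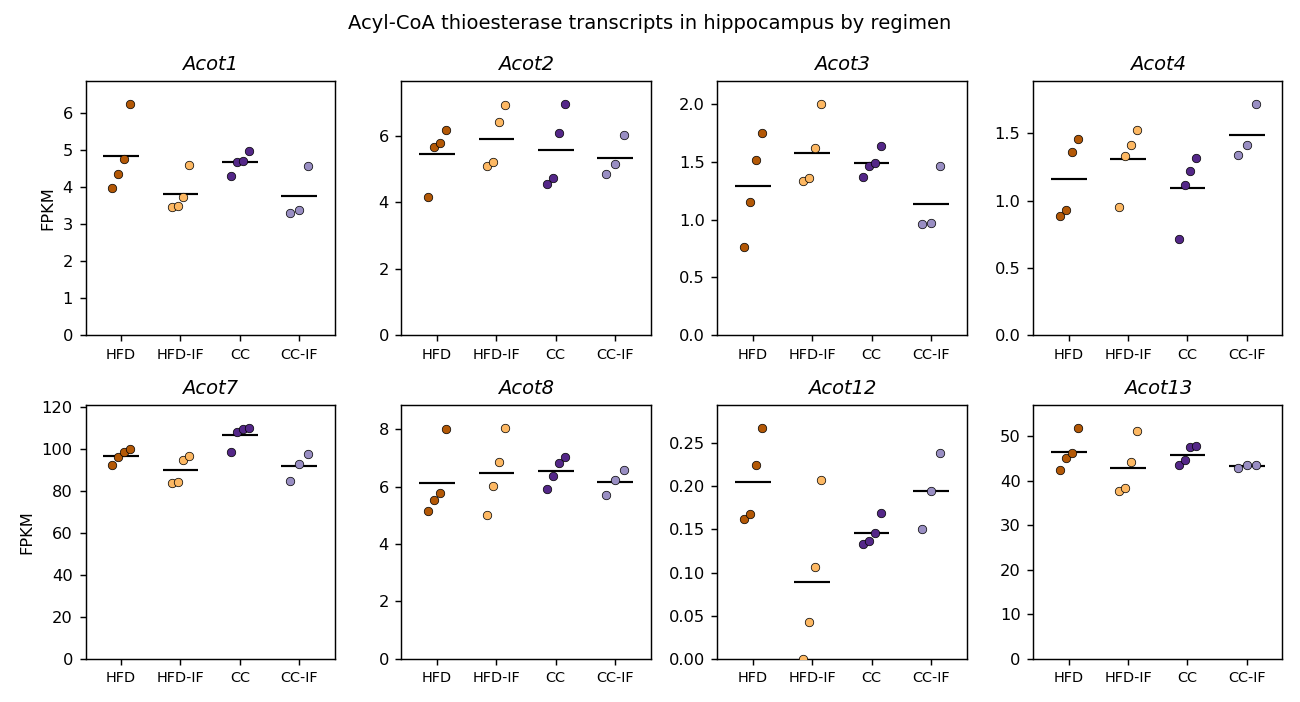
FPKM of each thioesterase gene in hippocampus on linear axes from 0, with 1 point per library and a line at the group mean (n = 4, 4, 4 and 3 for HFD, HFD-IF, CC and CC-IF). The groups of most genes overlap; Acot7 in CC-IF (84.8 to 97.6) lies under CC (98.4 to 110.0), and Acot12 stays under 0.3 FPKM.

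The fasting change on chow was then compared between the tissues in 1 model of all libraries, treated as independent because which of them share a mouse is not given in the sources used here. It was greater in liver for 6 of the 7 members that reached the minimum in both tissues. Over all genes with enough signal in either tissue it was greater in liver for 7.27%, and 11.2% differed in either direction. The difference between tissues was 5.66 ± 0.70 for Acot3, 3.19 ± 0.53 for Acot1, 2.59 ± 0.56 for Acot2 and 2.51 ± 0.36 for Acot4 on the log2 scale (SE, limma, adjusted p at most 0.00271). It was 0.68 ± 0.18 for Acot13 and 0.45 ± 0.11 for Acot7 (limma, adjusted p at most 0.0156), and 0.50 ± 0.21 for Acot8 (adjusted p = 0.141). Acot13 lost this call with quantile normalization (0.50, adjusted p = 0.0557). Acot12 entered this model only through its liver level, and with the added 1 its hippocampal values cannot move far from 0. Its estimate of 0.86 ± 0.18 (limma, adjusted p = 0.00203) therefore restates its liver change, and with a pseudocount of 0.1 it did not pass (0.68, adjusted p = 0.231).

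Other thioesterases and relatives were a list of 9 genes, of which 5 could be tested in liver. In CC-IF against CC, 2 of these rose and 0 fell, as against 14.2% and 9.77% of all genes. Them4, a mitochondrial thioesterase, rose from 14.1 ± 2.08 to 21.2 ± 1.98 FPKM (SD, n = 4 and 4), and Acot11, a thioesterase known from brown fat, from 1.23 ± 0.20 to 2.17 ± 0.56 (limma, adjusted p = 0.00128 and 0.0467). Acot11 also fell in CC against HFD (-0.90 ± 0.17, limma, adjusted p = 0.0181), where 2.3% of all genes passed in either direction. It passed the test of a difference between both fasting changes (1.28 ± 0.26, limma, adjusted p = 0.0412), where no member and 1.11% of all genes did. The sum of 5 adipocyte markers also fell with the diet, from 6.21 to 83.96 FPKM in the HFD livers to 0.51 to 1.97 in the CC livers. In the HFD-IF livers that sum was 18.3 and 42.9 FPKM, within the HFD range, while Acot11 averaged 1.49 FPKM there against 3.17 in HFD. The part of adipocytes in these results was not tested. Baat, which conjugates bile acids, Pctp, a phosphatidylcholine carrier that binds Acot13, and Acot9 did not pass on chow. Acot5, Acot6, Acot10 and Them5 were under the minimum in liver, and Acot10 and Them5 were listed at 0 in all CC and CC-IF livers.

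Genes that act on acyl-CoA on either side of the thioesterases were counted in the same comparison, in which 14.2% of all genes rose and 9.77% fell. Of 15 tested acyl-CoA synthetases, which bind fatty acids to coenzyme A, 7 rose and 2 fell. Slc27a1, a fatty acid transport protein with this activity, rose from 2.35 ± 1.02 to 13.5 ± 2.90 FPKM (SD, n = 4 and 4), a change of 2.14 ± 0.20 on the log2 scale, and Slc27a2, Acsf2 and Acsl1 by 0.94 ± 0.15, 0.40 ± 0.08 and 1.15 ± 0.24 (SE). Of 13 genes of coenzyme A synthesis and breakdown, 7 rose and 1 fell. Vnn1 and Vnn3 of the vanin family, which act on pantetheine, rose by 2.16 ± 0.40 and 0.97 ± 0.15, and Nudt19, a peroxisomal coenzyme A hydrolase, by 0.64 ± 0.10. Nudt7, another peroxisomal coenzyme A hydrolase, fell from 434 ± 103 to 97.5 ± 27.4 FPKM (SD, n = 4 and 4; -2.16 ± 0.49, SE, limma, adjusted p = 0.0072). The median change over each of these lists was 0.40 and 0.45, against 0.022 over all genes.

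In peroxisomal fatty acid oxidation 10 of 19 genes rose, 0 fell and 9 did not pass, against 14.2% of all genes that rose. Among the 10, with log2 change and SE, were the thiolases Acaa1a (1.45 ± 0.13) and Acaa1b (1.70 ± 0.22) and the isomerase Ech1 (0.98 ± 0.13). Pex11a, which encodes a peroxisomal protein, was another (1.31 ± 0.19). In mitochondrial oxidation 12 of 14 tested genes rose and 0 fell, among them the carnitine carrier Slc25a20 (1.12 ± 0.14), Acadm (1.09 ± 0.14), Hadhb (0.85 ± 0.13) and Hadh (0.86 ± 0.13). Of 9 omega-hydroxylases, 4 rose and 1 fell. Cyp4a10 had 11.3, 31.4, 131.0 and 210.8 FPKM in the CC livers and 1246 to 1947 in the CC-IF livers, and Cyp4a14, Cyp4a31 and Cyp4f15 rose by 4.995 ± 0.99, 3.18 ± 0.55 and 0.72 ± 0.13. The median changes of the 3 lists were 0.67, 0.73 and 0.64.

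Among 14 regulators, 5 rose and 1 fell, against 14.2% and 9.77% of all genes. Ppara had 45.1, 51.2, 58.8 and 94.9 FPKM in the CC livers and 108.2, 120.1, 117.2 and 136.3 in the CC-IF livers, without overlap, and rose by 0.99 ± 0.21 (SE, limma, adjusted p = 0.0044). Its partner Rxra rose by 0.45 ± 0.12, the nuclear receptor Nr1i3 by 2.25 ± 0.36 and Esrra, a regulator of mitochondrial genes, by 1.09 ± 0.08 (SE, limma, adjusted p at most 0.0177). The median change of the list was 0.45.

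The unfasted CC livers differed from each other in several members at once. CC library 3 had the highest and CC library 0 the lowest FPKM of Acot1, Acot2, Acot3, Acot4, Ppara, Cyp4a10 and Cyp4a14 in that group. In the HFD livers, library 1 was lowest and library 3 highest for Acot2, Acot3, Acot4, Acot12, Acot13, Cyp4a10 and Cyp4a14, while Acot1, Acot7, Acot8 and Ppara were highest in library 2. In CC, Acot7, Acot8, Acot12 and Acot13 did not have both extremes in libraries 3 and 0. Over all 14 livers the genes most like each member by Pearson's r of log2(FPKM + 1) were the carnitine transporter Slc22a5 (0.98), Cyp4a31 (0.97) and Efhd2 (0.96) for Acot1, and the peroxisomal enzyme Ehhadh (0.98), Abhd2 (0.95) and Idh2 (0.94) for Acot2. Acot3 and Acot4 were each other's closest gene, at 0.997, followed by Lrp4 (0.98 for each), then Por (0.97) for Acot3 and Gys2 (0.98) for Acot4. Only genes with a mean of at least 1 FPKM in the tissue were ranked, and Gm and Rik symbols were left out. For Acot7, over the 15 hippocampal libraries, Nomo1 (0.88) and Il34 (0.84) were among the 3 closest genes. These correlations describe libraries that also share their group and its changes, and no test was made of them.

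Depth could only be approximated from low values that behave as whole fragments, at a median of 11.5 M fragments in liver and 13.8 M in hippocampus, and single estimates may be a multiple of the true depth. Marker genes matched the labelled tissues, with 8 of 8 neuronal markers at 1 FPKM or more in every hippocampal group and 7 or 8 of 8 hepatocyte markers in every liver group. Alb, the albumin gene of hepatocytes, was listed at 0 in 8 of 14 livers, namely 1 HFD, 3 CC and all 4 CC-IF livers, and at 29214.5 FPKM or more in the other livers. A listed 0 of so abundant a gene can be a failed estimate, and its part in the results was not tested. After median-of-ratios scaling, which is not driven by single abundant genes, the same 6 members rose on chow fasting. Macrophage markers summed to 71.9 to 133.0 FPKM in CC and 51.7 to 77.3 in CC-IF livers (7 of 7 at 1 FPKM or more), and 5 adipocyte markers to at most 1.97 in CC and 2.63 to 6.90 in CC-IF livers, with Adipoq and Lep at 0 in all of them; their part in the results was not tested.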

How the data were processed

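The authors deposited 1 table of FPKM for 24346 genes and 29 libraries, of the 32 samples the series design states. Per the submitters' processing notes, the tools were TopHat2 2.1.1 with Bowtie2 2.3.5.1, Trimmomatic 0.39 and FastQC 0.11.9, and the build was GRCm38. Which program gave the FPKM values, with which annotation and scaling, is not given in the sources used here. Per the labels' protocols, strand-specific libraries of polyadenylated RNA were read as pairs of 125 nt. Columns were tied to groups by name, with 0 left without a group. The series design calls the samples biological replicates. The p-values set each difference against the spread between libraries within groups, estimated over all groups of a model.

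Values were tested as log2(FPKM + 1) with limma 3.58.1 (R 4.3.3, intensity trend, all groups of a tissue in 1 model, two-sided) on genes with a mean of at least 1 FPKM in the tissue: 11497 in liver, 12857 in hippocampus and 14415 in either. P-values were adjusted over all these genes by the method of Benjamini and Hochberg, with a threshold of 0.05. On simulated data for liver CC-IF against CC (11497 genes), 88% of changes of 1 and 38% of changes of 0.5 on the log2 scale were recovered. For hippocampus (12857 genes) the shares were 100% and 62%. The changed genes were drawn at random, 50 at each size from 0.5 to 3, so these shares do not describe single members. The adjustment of p-values depends on how many genes change. In the data 2756 of 11497 genes passed in liver and 1 of 12857 in hippocampus (limma). The simulated shares therefore do not tell how many real changes these tests would find. In liver the SE of that comparison was 0.48 for Acot1, 0.50 for Acot2 and 0.64 for Acot3, against 0.09 for Acot7. Recovery was not simulated for the members or for the comparisons with HFD-IF. Sequences came from RefSeq tables (GRCm38.p6), which matched 7 of 8 members, and positions from GENCODE M21. Python 3.11.15, pandas 2.3.3, Biopython 1.88 and matplotlib 3.10.9 served for tables and plots.

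The members and gene lists were chosen with earlier results of these data known. Named are all members, all 9 other thioesterases, up to 4 genes with the smallest p past the threshold on chow fasting in liver from each pathway list, Ppara, genes within 150 kb of the cluster, and the 3 genes most like a member, of which 1 is not reported here. Of the genes within 150 kb, those without a table row are not named, except Gm49366.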

Additional observations from a re-analysis of the deposited data

Results flagged for a closer look

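In 3 of 48 groups of 4 livers or hippocampi examined over the members, 1 library stood apart from the rest of its group, where chance gives about 1 in 20. The gap to the nearest library, as a share of the group's range, was 0.867 for Acot8 in HFD liver (library 2, 20.4 FPKM, the highest), 0.853 for Acot12 in CC liver (library 3, 65.2 FPKM, the highest) and 0.905 for Acot13 in CC-IF liver (library 2, 59.7 FPKM, the lowest), each above Dixon's 95% critical value. The fasting change on chow differed between liver and hippocampus for 6 of the 7 members that reached the minimum in both tissues, in the test of that difference (limma), by 3.19 for Acot1, 2.59 for Acot2, 5.66 for Acot3, 2.51 for Acot4, 0.448 for Acot7 and 0.683 for Acot13 on the log2 scale. The value of 0.861 for Acot12 restates its liver change, since it was too low in hippocampus to be tested there, and its call was lost with a pseudocount of 0.1. For Acot7 neither tissue passed alone: its estimates were 0.23 in liver and -0.21 in hippocampus.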

How the results depend on the processing

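The 6 members that rose in liver on chow fasting kept their direction and call in all 21 alternatives (smaller pseudocount, no filter, no trend, the 2 groups alone, median-of-ratios scaling, quantile normalization, library weights and leaving out each of 14 libraries), and the count was 6 to 8. Of 23 called member results, 2 lost their call, named in the text, and 0 changed sign. Of 83 results not called, 11 passed under some alternative. The count of members called in liver went from 0 to 1 for CC minus HFD with limma library weights (Acot13), where 1061 of 11497 genes were called against 265. Leaving out 1 library, it ranged from 0 to 1 for HFD-IF minus HFD (1 without HFD-IF library 0 or CC library 0), CC-IF minus HFD-IF and the difference between fasting changes (1 without HFD-IF library 0, where 1633, 1773 and 1766 genes were called). In hippocampus it was 0 in all alternatives run.

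In 27 results that were not called the sign changed, and the cause was not tested. Values are on the log2 scale. With quantile normalization these were Acot13 liver HFD-IF minus HFD 0.068, Acot2 liver difference between fasting changes -0.0002993, Acot1 hippocampus CC-IF minus HFD-IF 0.0012, Acot13 liver minus hippocampus on CC -0.44 (this last with adjusted p = 9.03e-04 in limma). With a pseudocount of 0.1 they were Acot1 hippocampus difference between fasting changes -0.0046, Acot3 liver minus hippocampus on CC -0.094. With median-of-ratios scaling it was Acot2 hippocampus CC minus HFD -0.0099. With library weights they were Acot2 hippocampus CC minus HFD -0.075, Acot4 hippocampus CC minus HFD 0.016, Acot2 hippocampus CC-IF minus CC 0.045, Acot13 hippocampus CC-IF minus HFD-IF -0.047, Acot8 hippocampus CC-IF minus HFD -0.0001766, Acot2 hippocampus difference between fasting changes 0.0069, Acot13 hippocampus difference between fasting changes -0.041, Acot3 liver minus hippocampus on CC -0.0031. Leaving out 1 library gave the following ranges in liver: Acot8 CC minus HFD -0.14 to 0.098, Acot13 HFD-IF minus HFD -0.22 to 0.16, Acot2 difference between fasting changes -0.99 to 1.19, Acot2 CC-IF minus HFD-IF -1.41 to 0.77, Acot8 CC-IF minus HFD-IF -0.057 to 0.31, Acot8 difference between fasting changes -0.018 to 0.35, Acot1 CC minus HFD -0.28 to 0.64, Acot7 CC-IF minus HFD -0.017 to 0.074. In hippocampus the ranges were Acot2 CC-IF minus HFD -0.12 to 0.038, Acot3 CC-IF minus HFD -0.21 to 0.0011, Acot4 CC minus HFD -0.11 to 0.048, Acot13 CC minus HFD -0.056 to 0.039, Acot8 CC-IF minus HFD -0.040 to 0.14, Acot13 difference between fasting changes -0.014 to 0.13, Acot1 CC minus HFD -0.10 to 0.082, Acot1 difference between fasting changes -0.12 to 0.075, Acot2 CC minus HFD -0.078 to 0.10, Acot2 HFD-IF minus HFD -0.0030 to 0.16, Acot1 CC-IF minus HFD-IF -0.15 to 0.048, Acot7 CC-IF minus HFD-IF -0.016 to 0.085, Acot13 CC-IF minus HFD-IF -0.029 to 0.11, Acot8 HFD-IF minus HFD -0.024 to 0.19, Acot8 CC-IF minus HFD-IF -0.15 to 0.049, Acot2 CC-IF minus CC -0.12 to 0.054. Between tissues the range was Acot3 liver minus hippocampus on CC -0.32 to 0.53.

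Median-of-ratios scaling moved the median of all genes in liver minus hippocampus on CC to -0.114 and quantile normalization to 0.061, from -0.050. No paired analysis was possible because the columns carry none of the labels' replicate numbers, so the fit with a replicate block was not run. The table holds FPKM only, so no count model was run, and members under about 1 FPKM rest on few fragments.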
